A study of Homo sapiens with 24 samples.

Results

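A549 is an established human lung adenocarcinoma line, of alveolar epithelial origin. To silence MYBL2 and FOXM1 together, A549 cells were co-transfected with siRNAs against each gene (siBoth, 3 libraries) or with scrambled siRNA (siControl_Both, 3 libraries). The dose was 25 nM as the labels give it. Whether this was the total in siBoth or the dose of each siRNA is not stated. These 6 libraries were chosen by their labels from the 24 of the series. The single knockdowns siMYBL2 and siFOXM1, 4 libraries each, shared 4 siControl libraries from another experiment and are used only to show where the double knockdown differed from them. The comparison asked which genes respond when both transcription factors are removed at once. A single cell line and 1 siRNA reagent per gene limit how far the values carry beyond these cells. The labels describe the replicates as RNA samples from each condition, and the paper's methods call them biological replicates. In the main test libraries were paired by replicate number. Its p-values thus measure the spread of the change between pairs of such samples, and not the spread between samples.

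MYBL2 (B-MYB) joins the MuvB core of LIN proteins and RBBP4 in S phase, and FOXM1 is then recruited to the same core for the G2 phase. Both complexes are known activators of late cell cycle genes, whose promoters often carry a cell cycle genes homology region (CHR) and CCAAT boxes. FOXM1 is a forkhead factor, and its own gene is a target of the MYBL2-MuvB complex. In quiescent cells the same core joins RBL1 or RBL2 and E2F4 to repress these genes as the DREAM complex.

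Between 23065227 and 27659364 read pairs per library fell on genes in the 6 libraries, with similar depth in both groups. The share of pairs that did not align was 9.09%, 10.9% and 10% in siBoth libraries and 7.68%, 7.92% and 7.81% in siControl_Both libraries, so this measure separated the groups, and its part in the results was not tested. The summed level of 18 markers of other cell types was 49.6, 72.1 and 65 CPM (read pairs scaled to the size of each library) in siBoth and 42.6, 36.8 and 47.3 CPM in siControl_Both. Most of it was COL1A1, and 3 of the 18 had no count in any library. KRT8, an epithelial keratin, had 2584, 2452 and 1724 CPM in siBoth and 2809, 2091 and 1575 CPM in siControl_Both. Of 12 alveolar type II markers 4 passed the filter on low counts, and the surfactant gene SFTPC and the lineage factor NKX2-1 were near 0, so the libraries carried epithelial keratins without a full alveolar type II profile.

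Both targeted genes were lowered in every siBoth library. MYBL2 (ENSG00000101057.15, chr20:43667019-43716495 in hg38, 14 exons) stood at 6.14, 9.36 and 9.73 CPM in siBoth replicates 1, 2 and 3 and at 155, 189 and 169.5 CPM in the same-numbered controls, with TMM-scaled library sizes. The remaining level was 4.91% of the controls (log2 fold change −4.36, SE 0.099, adjusted p = 1.98e-14). FOXM1 (ENSG00000111206.12, chr12:2857680-2877174, minus strand) stood at 10.1, 14.3 and 14.8 CPM in siBoth and 124, 142 and 139 CPM in siControl_Both. It remained at 9.67% of the controls (log2 fold change −3.38, SE 0.090, adjusted p = 1.29e-13). The groups did not overlap for either gene. A share of 15.9% of the FOXM1 exon bases overlaps a gene on the opposite strand, and the strand setting of the counting is not given in the sources used here.

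Neither target passed the test for a difference between the double knockdown and the single knockdown of the same gene. The MYBL2 effect of siBoth was 0.22 above that of siMYBL2 on the log2 scale (SE 0.143, adjusted p = 0.37). The FOXM1 effect differed from that of siFOXM1 by −0.0035 (SE 0.105, adjusted p = 0.987). In siMYBL2 libraries FOXM1 itself fell by 0.74 on the log2 scale, and in siFOXM1 libraries MYBL2 had a log2 fold change of −0.057.

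**Figure D1:**
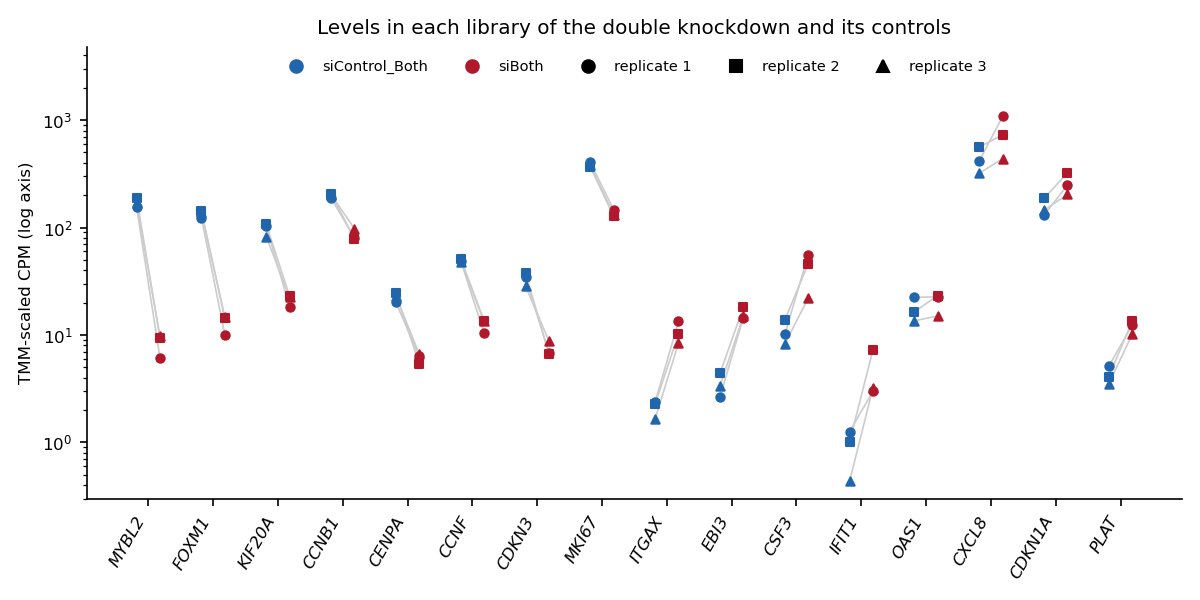
Normalized level of 16 genes in the 6 libraries of the double knockdown, in TMM-scaled CPM on a log axis, with siControl_Both in blue, siBoth in red, 1 marker shape for each replicate number and grey lines between same-numbered libraries. MYBL2, FOXM1 and the mitotic genes lie lower in every siBoth library, and ITGAX and EBI3 lie higher, while the levels of OAS1 and CXCL8 overlap between the groups.

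A gene was called when its edgeR adjusted p was under 0.05 and its fold change over 1.5, with the replicate number as a block. Among 15812 genes tested, 803 were lower in siBoth (5.08% of genes) and 1046 were higher (6.62%). In 688 of the genes called lower and 814 of those called higher, the 3 siBoth and 3 siControl_Both levels did not overlap. The share over all genes tested is not given here. Calling favours genes whose groups are apart, so these counts are no separate evidence. The genes called lower comprised 732 protein-coding genes and 46 long noncoding RNAs, and those called higher 839 and 153. Without the replicate block the counts were 576 lower and 443 higher, and 572 and 441 of these, 99.3% and 99.5%, were among the calls with the block. The share of calls that were higher was 56.6% with TMM scaling and the block, 69.1% with upper-quartile scaling and 43.5% without the block. DESeq2 gave 724 lower and 577 higher, and leaving out replicate 2 gave 701 and 628. Without the block and in DESeq2, genes called lower thus outnumbered those called higher.

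**Figure D2:**
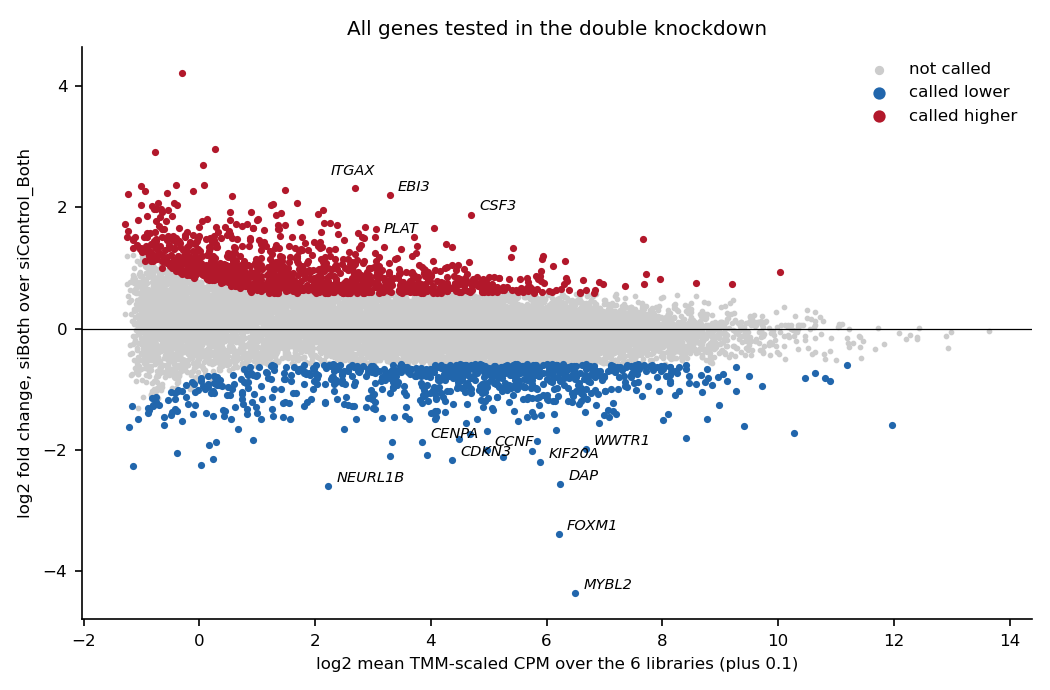
Log2 fold change of siBoth over siControl_Both against the log2 mean CPM over the 6 libraries, for all 15812 genes tested, with genes called lower in blue and called higher in red. MYBL2 and FOXM1 are the lowest labelled points, and the genes called higher lie mostly at low levels, while the genes called lower spread over the whole range of levels.

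Genes for spindle motors, mitotic cyclins, the centromere and chromosome condensation were lower in siBoth, and no member of these lists was called higher. The study's 10 named target genes were all called lower, with a median log2 fold change of −1.48, beside a median of 0.015 over all genes tested. The study chose those 10 with these samples in view, so their direction is not independent evidence. Of 42 genes tested for the spindle, mitotic motors and cytokinesis, 26 were called lower, beside 5.08% of all genes, and their median was −0.78. Of 23 mitotic cyclins, kinases and phosphatases, 12 were lower (median −0.61), and of 44 centromere, kinetochore and spindle checkpoint genes, 12 were lower (median −0.38). The Seurat list of G2/M genes, used widely to score the cell cycle, had 30 of 54 members called lower and a median of −0.63. In these lists the counts without the block were 26, 12, 11 and 30. Fewer cells in G2/M and less mitotic RNA in each cell cannot be told apart in bulk RNA.

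KIF20A (ENSG00000112984.11, chr5:138178719-138187723), a kinesin needed for cytokinesis, fell most among the motors. It had 18.2, 22.8 and 22.3 CPM in siBoth replicates 1 to 3 and 103, 108 and 82.1 CPM in their controls (log2 fold change −2.2, SE 0.099, adjusted p = 1.55e-10). The highest siBoth library was far under the lowest control. CEP55, a midbody protein of abscission, had 39.4, 41.9 and 38.8 CPM in siBoth and 88.8, 96.8 and 85.1 in siControl_Both (log2 fold change −1.17, SE 0.072, adjusted p = 5.08e-09). ASPM, which focuses spindle poles, fell by 1.24 on the log2 scale, and KIF23, a motor of the central spindle, fell by 1.03. FAM83D, which recruits a kinase to the spindle, fell by 1.12, and KNSTRN, a kinetochore-associated spindle protein, fell by 1.01. All 42 members of this list had a log2 fold change below 0, from −2.2 to −0.097.

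Among the cyclins and their regulators, CCNF, the F-box cyclin of an SCF ubiquitin ligase, stood at 10.4, 13.6 and 13.4 CPM in siBoth and 49.3, 51.4 and 48.2 CPM in siControl_Both (log2 fold change −2.0, SE 0.096, adjusted p = 3.57e-10). CCNB1, the cyclin that drives entry into mitosis, stood at 80, 78.8 and 97.7 CPM and 188, 206 and 203 CPM (log2 fold change −1.23, SE 0.075, adjusted p = 5.08e-09). No siBoth library reached a control level for either cyclin. CCNA2, the cyclin of S phase and G2, fell by 1.46 on the log2 scale and its partner kinase CDK1 fell by 1.11. BORA, an activator of Aurora A, fell by 1.5, with 37% of its exon bases under a gene of the other strand. CDKN3, a phosphatase that acts on cyclin-dependent kinases, had 6.85, 6.66 and 8.83 CPM in siBoth and 34.3, 37.9 and 28.4 CPM in siControl_Both (log2 fold change −2.17, SE 0.13, adjusted p = 5.08e-09). It was listed here among CDK inhibitors, although its transcript is known to peak late in the cell cycle, and it fell about as far as KIF20A.

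At the centromere, CENPA, the histone H3 variant that marks it, stood at 6.33, 5.41 and 6.63 CPM in siBoth and 20.1, 24.3 and 23.1 CPM in siControl_Both (log2 fold change −1.87, SE 0.12, adjusted p = 1.15e-08). CENPE, a kinesin of the kinetochore, fell by 1.52 on the log2 scale. CENPF fell by 1.01 and HJURP, the chaperone that loads CENPA, fell by 0.73. The falls were graded within this list, whose other members were mostly not called. In the list for condensin, chromosome structure and the nuclear envelope, 6 of 21 members were called lower, with a median of −0.43. The 6 were 28.6% of the list, beside 5.08% of all genes. MKI67, the proliferation marker that coats mitotic chromosomes, had 146, 127 and 132 CPM in siBoth and 404, 366 and 380.2 CPM in siControl_Both (log2 fold change −1.51, SE 0.068, adjusted p = 1.55e-10). TOP2A, the topoisomerase of mitotic chromosomes, fell by 1.02, and the condensin subunit NCAPG fell by 1.09, with 33.7% of its exon bases under an opposite gene. H2AX, a histone of DNA damage signalling, fell by 0.71 with the block but was not called without it (adjusted p = 0.0501 in edgeR).

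Of 21 genes of the anaphase-promoting complex and its partners, 5 were called lower, 23.8% beside 5.08% of all genes, and the median was −0.15. UBE2C, the E2 enzyme of the complex, fell by 1.25 on the log2 scale, the separase gene ESPL1 fell by 0.86 and the securin gene PTTG1 fell by 0.74. ANAPC13, a small subunit, fell by 0.98, and 19.3% of its exon bases lie under a gene of the other strand.

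Promoters of the mitotic genes that fell often carried the letters of the CHR close to the start site. Not all did. CDKN3, BORA and CDK1 had CHR letters (TTTGAA or TTTAAA) only further than 100 bases upstream. CCNA2 and KNSTRN had neither TTTGAA nor TTTAAA between 250 bases before and 50 after the start. Other forms of the CHR were not searched. The 100 bases upstream of 5 genes, chosen among those that hold CHR letters there, are shown. CHR letters and CCAAT, read on both strands, are in capitals in these stretches. The stretches come from RefSeq (GRCh38.p14), 5′ to 3′ along the gene: KIF20A at chr5:138179012-138179111, CCNB1 at chr5:69167050-69167149 and CENPA at chr2:26785956-26786055 on the plus strand, and MKI67 at chr10:128126424-128126523 and CENPE at chr4:103198344-103198443 on the minus strand.
KIF20A: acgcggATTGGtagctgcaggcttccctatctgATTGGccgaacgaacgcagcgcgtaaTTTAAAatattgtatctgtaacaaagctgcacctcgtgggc
CCNB1: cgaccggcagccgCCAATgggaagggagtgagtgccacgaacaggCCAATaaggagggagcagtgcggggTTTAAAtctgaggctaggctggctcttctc
CENPA: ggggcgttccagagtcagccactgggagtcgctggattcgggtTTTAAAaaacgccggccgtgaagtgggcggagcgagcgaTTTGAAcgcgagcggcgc
MKI67: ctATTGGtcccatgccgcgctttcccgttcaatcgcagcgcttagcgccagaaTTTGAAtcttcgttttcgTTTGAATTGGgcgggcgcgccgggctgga
CENPE: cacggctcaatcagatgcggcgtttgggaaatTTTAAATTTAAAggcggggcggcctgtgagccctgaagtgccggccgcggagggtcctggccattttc

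Over 10788 protein-coding genes tested with a promoter in that table (81.5% of 13234), the CHR letters were found between 250 bases before and 50 after the start in 15.7%. Among the 597 genes called lower with a promoter they were found in 27.1%, and among the 42 called lower in the spindle, cyclin and centromere lists in 81%. In the 46 genes of those lists that were not called the share was 52.2%, and in the 555 genes called lower outside them 23.1%. CCAAT was found in 36.3% of all promoters, in 41.2% of those of genes called lower and in 81% of those of the 42 mitotic genes, against 63% in the 46 genes of those lists that were not called. The letters AACGG or AACTG, which resemble a MYB site, were found in 50.2% of all promoters, 49.7% of those of genes called lower and 66.7% of those of the 42, and the share was higher, at 73.9%, in the 46 that were not called. In CCNB1 the capitals mark CHR letters at base −30 and CCAAT at bases −87 and −55, counted from the start. In MKI67 the letters TTTGAA and ATTGG share bases. These are matches of short letters and not measured binding. Of the protein-coding genes called higher, 73.3% had a promoter in the table, under the 80% set for such a share, so that check is void and no share is given.

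Of 57 genes for DNA replication and deoxynucleotide synthesis, 8 were called lower (14%, beside 5.08% of all genes) and the median was −0.27. The Seurat S-phase list had 6 of 42 called lower (14.3%) and a median of −0.36, close to that of the centromere list. RRM2, the regulated subunit of ribonucleotide reductase, had 31.1, 32 and 30.8 CPM in siBoth and 68.1, 75.9 and 65.9 CPM in siControl_Both (log2 fold change −1.16, SE 0.076, adjusted p = 1.09e-08). UHRF1, which maintains DNA methylation at the fork, had 22, 42.8 and 37.1 CPM and 58.4, 87.5 and 73.7 CPM (log2 fold change −1.14, SE 0.087, adjusted p = 6.19e-08). Replicate 1 was the lowest in both groups for UHRF1, and each siBoth library stood below its own control. TICRR, which licenses origin firing, fell by 0.97 on the log2 scale, TOPBP1 fell by 0.62 and DTL, which targets CDT1 for degradation, fell by 0.63. The replication count was 4 without replicate 2 and 14 without replicate 3, and that of the Seurat list 3 and 12.

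Of 36 genes for homologous recombination and the Fanconi anaemia pathway, 4 were called lower: RBBP8 (−0.64), RMI1 (−0.65), BRCA2 (−0.67) and FANCB (−0.66). The 4 were 11.1% of the list, beside 5.08% of all genes. With a correction for GC content and length none of the 4 passed edgeR's threshold with the 1.5-fold limit, FANCB was not called without the block, and 2 of the 4 were called without replicate 2. Among 16 genes of the G1/S transition, E2F8, a repressor of the E2F family, fell by 1.31 on the log2 scale, CCND3 fell by 0.64 and E2F7 fell by 0.60. CDKN2D, an inhibitor of CDK4 and CDK6 with under 4 CPM in every library, fell by 0.68 and was not called without the block.

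Of 16 genes tested for the MuvB core and its partners, the targets included, 15 had a log2 fold change below 0. Their median was −0.149, beside 0.015 over all genes tested. The 2 called were MYBL2 and FOXM1. LIN9 had 12.7, 12.9 and 17.5 CPM in siBoth and 16.5, 18.5 and 18.8 CPM in siControl_Both, with overlapping groups. Its log2 fold change of −0.33 was under the 1.5-fold limit (adjusted p = 0.0273 in edgeR). The DREAM partner RBL1 had 26.6, 24.3 and 27.6 CPM and 32.6, 36.2 and 37.5 CPM, with a log2 fold change of −0.44 that was under the 1.5-fold limit (adjusted p = 0.001). MYBL1, the closest relative of MYBL2, had a log2 fold change of −0.37, and MYB was under 1.1 CPM in every library. These 4 genes were chosen for display after their values had been seen.

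**Figure D3:**
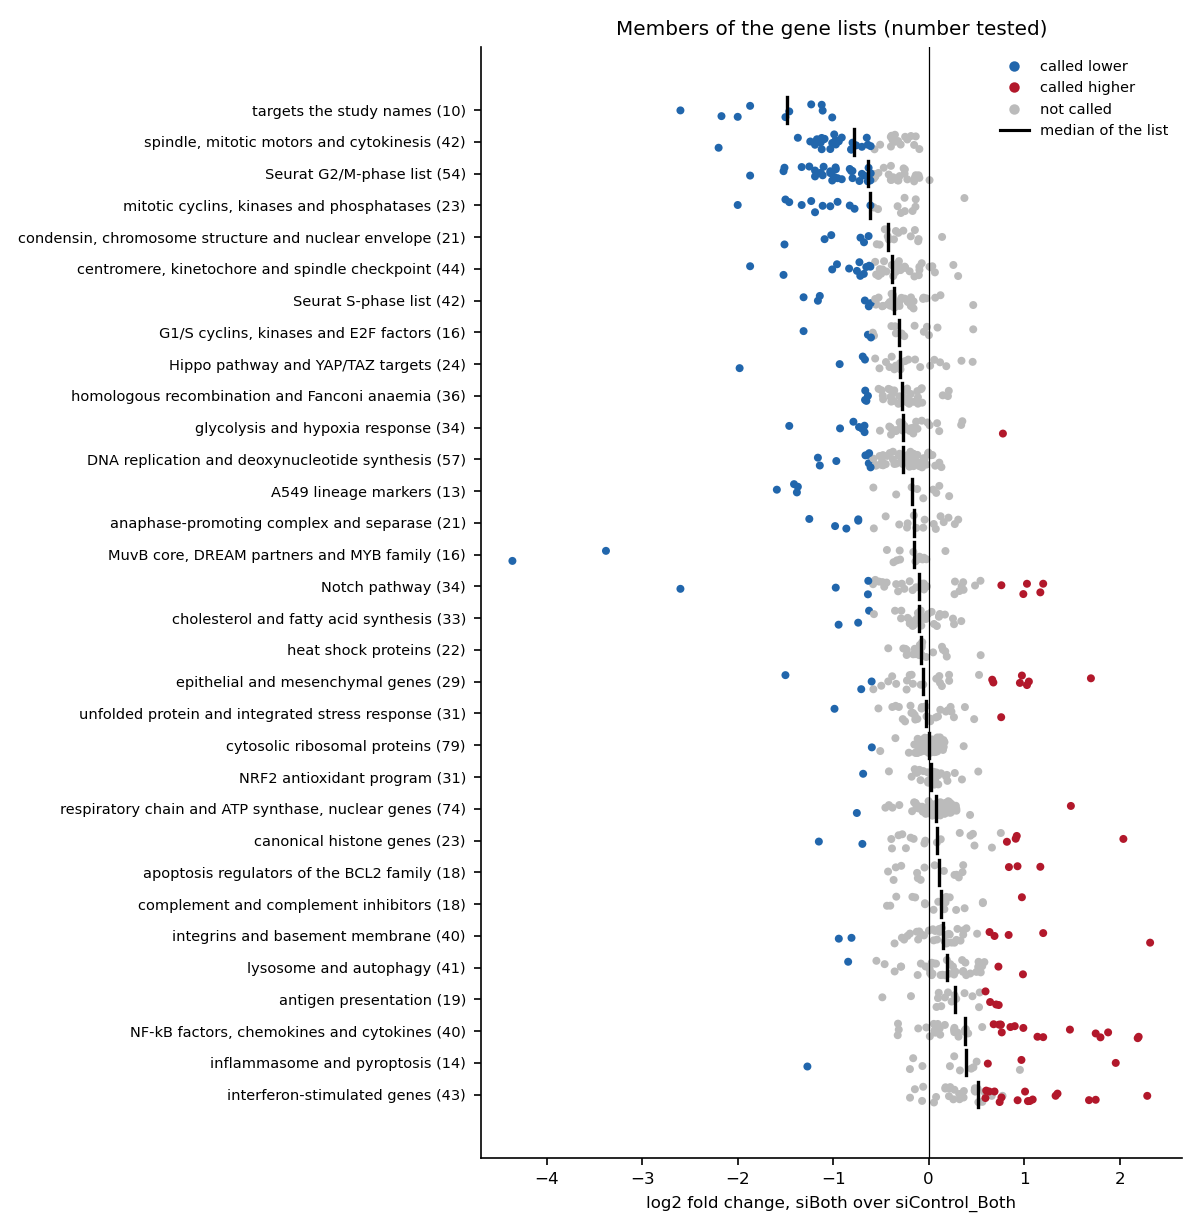
Log2 fold change of siBoth over siControl_Both for each tested member of the 32 gene lists with at least 10 tested members, with the number tested in parentheses, members called lower in blue, called higher in red and the median as a black bar. The mitotic lists lie to the left with 26 of 42 spindle genes called lower, and the interferon, inflammasome and NF-kB lists lie to the right.

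Several of the largest falls lay outside the cell cycle lists used here. DAP, a small protein linked to cell death and autophagy, had 22.6, 22.5 and 20.1 CPM in siBoth and 141, 129.9 and 117 CPM in siControl_Both (log2 fold change −2.57, SE 0.076, adjusted p = 5.27e-13). VANGL1, a planar cell polarity protein, had 14.2, 14.8 and 13.8 CPM and 61.7, 61 and 61.9 CPM (log2 fold change −2.11, SE 0.083, adjusted p = 3.4e-11). HLTF, a helicase-like factor of fork repair, had 19.1, 17.6 and 27.7 CPM and 81.6, 83.9 and 90.9 CPM, with 29.8% of its exon bases under an opposite gene. For each of the 3 the highest siBoth library was under the lowest control by far. EXTL3, a glycosyltransferase of heparan sulphate synthesis, fell by 1.85 on the log2 scale, and PIF1, a DNA helicase, fell by 2.09. The zinc finger genes ZNF845 (−2.1) and ZNF765 (−1.86) have close relatives that share sequence, so their counts are uncertain. RRBP1, a ribosome-binding protein of the endoplasmic reticulum, had 165, 157 and 126 CPM in siBoth and 454, 383 and 349 CPM in siControl_Both (log2 fold change −1.4, SE 0.071, adjusted p = 6.8e-10).

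The Hippo pathway limits growth by restraining the coactivators YAP and TAZ. Of its 24 genes tested, 4 were called lower, 16.7% beside 5.08% of all genes, and the median was −0.30. WWTR1, which encodes TAZ, had 38.7, 40.1 and 44.9 CPM in siBoth and 168, 161 and 159.8 CPM in siControl_Both (log2 fold change −1.99, SE 0.076, adjusted p = 2.75e-11). YAP1 had 79.4, 76 and 81.8 CPM and 123, 123 and 130.3 CPM, a log2 fold change of −0.67, and their DNA-binding partner TEAD1 one of −0.69. None of these groups overlapped. Of the target genes of these coactivators, ANKRD1 was called (−0.93; not called without the block), while CCN1 had −0.25 and CCN2 0.06, neither of them called. With the GC and length correction YAP1 and TEAD1 were not called.

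The Notch list, 34 genes of cell-to-cell signalling, moved in both directions, with 4 called lower and 5 higher (3 higher without replicate 2). The 4 lower and 5 higher were 11.8% and 14.7% of the list, beside 5.08% and 6.62% of all genes. NEURL1B, a ubiquitin ligase for Notch ligands and one of the 10 named targets, had 1.08, 0.998 and 1.83 CPM in siBoth and 8.72, 7.84 and 7.06 CPM in siControl_Both (log2 fold change −2.6, SE 0.21, adjusted p = 1.31e-07). NUMB, a Notch inhibitor, fell by 0.97 on the log2 scale, the ligand JAG1 fell by 0.64 and the receptor NOTCH1 fell by 0.63. The ligand DLL1 rose by 1.2 from under 1 CPM. DLL4, NEURL1 and MFNG were called higher with the block, at 1.17, 1.03 and 0.76, but their groups overlapped and none of the 3 was called without it (edgeR).

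Of 13 genes that mark A549 cells, 4 were called lower (30.8%, beside 5.08% of all genes), and 1 of them without the block. ALDH1A1, a retinaldehyde dehydrogenase abundant in this line, had 1862, 1914 and 2213 CPM in siBoth and 6415, 6066 and 5486 CPM in siControl_Both (log2 fold change −1.59, SE 0.087, adjusted p = 1.75e-09). The 3 fibrinogen chains, secreted clotting proteins that A549 cells make, fell together with the block. FGA had 49.3, 20.5 and 33.9 CPM and 204, 42.3 and 70.1 CPM, so each siBoth library was below its own control while the groups overlapped. Log2 fold changes were −1.41 for FGA, −1.38 for FGB and −1.37 for FGG, and without the block none of the 3 was called (adjusted p from 0.0933 to 0.122 in edgeR). Control replicate 1 held the highest level of each chain.

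Cell adhesion and metabolism gave smaller sets. Of 40 integrin and basement membrane genes, 2 were called lower, a share of 5% beside 5.08% of all genes, and 5 were called higher, 12.5% beside 6.62% (3 without the block), with a median of 0.152. The 5 higher were ITGAX, ITGAM, ITGA7 (0.84), ITGA11 (0.69) and the laminin chain gene LAMB3 (0.64). The 2 lower were ITGA3 and ITGB1, the subunits of a laminin receptor. ITGA3 had 588, 656 and 492 CPM in siBoth and 1124, 1118 and 1071 CPM in siControl_Both, and ITGB1 fell by 0.81 on the log2 scale. In the glycolysis and hypoxia list 7 of 34 genes were called lower and 1 higher, with 4 lower without the block and 4 without replicate 1. The 7 lower were 20.6% of the list, beside 5.08% of all genes. P4HA1, a collagen prolyl hydroxylase, fell by 0.70 and NDRG1, a stress-response gene, fell by 0.79, while PFKFB4, a regulator of glycolysis, rose by 0.78. EGLN3, an oxygen sensor, had 21.7, 14.1 and 12.9 CPM and 56.7, 16 and 27.9 CPM, with overlapping groups. Of 33 genes for sterol and fatty acid synthesis, SCD (−0.74) and FADS1 (−0.62) were among those called lower, SCD not without the block. LAMP1, a lysosomal membrane protein, fell by 0.84.

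Short words in 3′ UTRs marked many of the genes that fell. The words were chosen on the single knockdowns, as the 3 words of 7 bases with the most negative rank-sum statistic over log2 fold changes in each, so they were not chosen on the libraries described here. For siMYBL2 the word ranked first was CTTACAA, the next in rank was CCTTACA, and the last was the run of bases TTTTTTA. For siFOXM1 the word ranked first was GTGTTTA, the next in rank was TGTTTAA, and the last was the word GTTTAAA. Sites in 5 of the genes that fell are shown because these genes hold the words and fell far in siBoth. Each site holds 29 bases of the hg38 3′ UTR of the GENCODE V44 canonical transcript, on the strand of the gene, with the words in capitals. They lie at chr5:10680902-10680930 (DAP, minus strand), chr1:115691670-115691698 and chr1:115697067-115697095 (VANGL1, plus), chr3:63834059-63834087 (THOC7, minus), chr3:149520755-149520783 and chr3:149519427-149519455 (WWTR1, minus), and chr5:172688355-172688383 and chr5:172689175-172689203 (NEURL1B, plus).
DAP, siMYBL2 word: tctgtcctttgCCTTACAtttccatattt
VANGL1, siMYBL2 word: tgggagcctcgCCTTACAActaattcctg
VANGL1, siFOXM1 word: atcatttaggaGTGTTTAAttctaaaaag
THOC7, siFOXM1 word: atgaccataatGTGTTTAAAatgtggtat
WWTR1, siMYBL2 word: tgtagccatgaCCTTACAtttcctgggcc
WWTR1, siFOXM1 word: ctagatttcaaGTGTTTAAAataattcta
NEURL1B, siMYBL2 word: agcctgagacgCCTTACAAaaagcaagta
NEURL1B, siFOXM1 word: gaggtaaggaaGTGTTTAtcttctaaaaa

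Over 13154 protein-coding genes with a 3′ UTR, 5.54% were called lower and 6.33% higher in siBoth. Of the 1425 genes that held CTTACAA, 14.8% were called lower and 2.53% higher, and of the 2311 that held GTGTTTA, 10.9% and 3.76%. The run TTTTTTA was held by 6359 genes, with 7.71% lower and 3.62% higher. It thus made up most of the 6865 genes with any siMYBL2 word, and the groups below rest largely on it. Among 3834 genes with words of both knockdowns 9.55% were lower and 2.63% higher, with a median log2 fold change of −0.14. Among 5172 genes with neither, 2.57% were lower and 9.67% higher, with a median of 0.11. The 3031 genes with a siMYBL2 word only had 6.14% lower and 5.25% higher, near the shares of all genes. The 1117 with a siFOXM1 word only had 3.94% lower and 6.45% higher, with a median of 0.00851, so fewer of them were lower than of all genes. The median 3′ UTR was 3220 bases long in genes with words of both and 512 in those with neither, so length moved with the words and its part was not tested. Of the genes called lower 81.8% held a word of either knockdown, against 60.7% of all genes and 39.9% of those called higher. In the spindle, cyclin and centromere lists 45.7% of the 70 genes with a word and 45.9% of the 37 without one were called lower, so the mitotic genes fell at like rates in both. The siRNA sequences are not given in the sources used here, and the words were not compared with them.

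**Figure D4:**
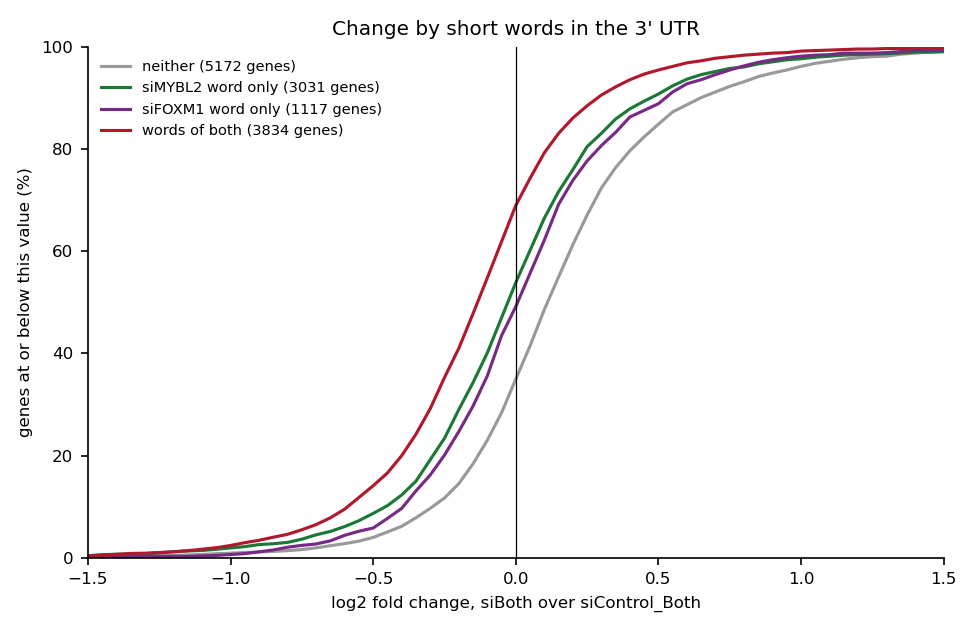
Cumulative percent of protein-coding genes against the log2 fold change of siBoth over siControl_Both, for genes whose 3′ UTR holds words of both single knockdowns (3834), a siMYBL2 word only (3031), a siFOXM1 word only (1117) or neither (5172). The curve for words of both lies to the left of the curve for neither, with medians of −0.14 and 0.11.

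Interferon-stimulated genes and genes for chemokines and cytokines were among those called higher. Of 43 interferon-stimulated genes tested, 16 were called higher, beside 6.62% of all genes, with a median log2 fold change of 0.51. Of 40 NF-kB factors, chemokines and cytokines, 16 were called higher, with a median of 0.38. Without the replicate block the counts were 4 and 5. The median over the NF-kB list was 0.73 in pair 1, 0.33 in pair 2 and 0.16 in pair 3, and that over the interferon list 0.40, 0.57 and 0.52. Of the leukocyte markers, PTPRC was at no more than 0.0872 CPM in all libraries, and CD3E and MS4A1 were without a count. Not all such markers were near 0. The monocyte marker CD14 rose from 7.46, 4.24 and 4.05 CPM to 12.2, 10.1 and 11.1 CPM (log2 fold change 1.11, SE 0.15, adjusted p = 3.35e-05).

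For several interferon genes the groups overlapped although each siBoth library was above its own control. GBP1, an interferon-induced GTPase, had 12.6, 17.4 and 3.38 CPM in siBoth replicates 1, 2 and 3 and 3.73, 4.47 and 1.66 CPM in their controls. Replicate 3 was low in both groups (log2 fold change 1.68, SE 0.17, adjusted p = 1.36e-06; adjusted p = 0.0783 without the block, in edgeR). MX1, an antiviral GTPase, had 5.05, 7.86 and 2.08 CPM and 1.26, 2.55 and 0.654 CPM (log2 fold change 1.75, SE 0.20, adjusted p = 4.48e-06; adjusted p = 0.08 without the block). GBP2 and GBP3 rose with the block by 1.06 and 1.09 in the same paired manner, with overlapping groups and no call without it. IFIT1, an RNA-binding antiviral protein, had 2.99, 7.28 and 3.21 CPM in siBoth and 1.26, 1.01 and 0.436 CPM in siControl_Both, with no overlap (log2 fold change 2.29, SE 0.28, adjusted p = 1.03e-05). OAS1, another gene of this response, had 22.6, 23.3 and 15 CPM and 22.4, 16.4 and 13.6 CPM and was not called. IFIT1 and OAS1 were chosen for display after their values had been seen.

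In antigen presentation 4 of 19 genes were called higher with the block, 21.1% beside 6.62% of all genes. None of these 4 was called without the block, and 2 were called higher without replicate 1. PSMB8, a subunit of the immunoproteasome, had 37, 35.2 and 24.1 CPM in siBoth and 23.8, 21.4 and 14.2 CPM in siControl_Both.

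The NF-kB list held members at low and at high levels. EBI3 (ENSG00000105246.5, chr19:4229523-4237528), a shared subunit of several interleukins, had 14.5, 18.1 and 15 CPM in siBoth and 2.65, 4.39 and 3.36 CPM in siControl_Both (log2 fold change 2.2, SE 0.14, adjusted p = 6.1e-09). CSF3, the granulocyte colony-stimulating factor, had 55.4, 45.8 and 21.9 CPM and 10.1, 13.8 and 8.24 CPM (log2 fold change 1.88, SE 0.14, adjusted p = 4.95e-08). ICAM1, an adhesion receptor for leukocytes, had 92.7, 102 and 57 CPM and 32.9, 47 and 32.6 CPM (log2 fold change 1.14, SE 0.10, adjusted p = 2.96e-07), with 25.4% of its exon bases under an opposite gene. The groups did not overlap for these 3 genes, and each was called without the block. CCL2, a monocyte chemokine, had 434, 317 and 152 CPM in siBoth and 103, 160.0 and 58.6 CPM in siControl_Both. Its rise of 1.48 on the log2 scale rested on the pairing, since the groups overlapped (adjusted p = 0.0556 without the block, in edgeR). CXCL8, a neutrophil chemokine picked for its high level after values had been seen, had 1081, 732 and 437 CPM and 417, 559 and 319.8 CPM, and it too was called only with the block (0.74).

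Among 14 inflammasome and pyroptosis genes, NLRP1, a sensor that activates caspase-1, had 4, 6.62 and 9.73 CPM in siBoth and 1.12, 1.35 and 2.83 CPM in siControl_Both (log2 fold change 1.96, SE 0.18, adjusted p = 5.68e-07). Replicate 3 was the highest in both groups, and the groups did not overlap. CASP4 (0.62) and MEFV (0.97) were called higher and NLRC4 (−1.27) lower with the block alone, and without replicate 2 NLRP1 alone of the list was called higher. NLRC4 was under 0.6 CPM in every library, with 56.2% of its exon bases under an opposite gene. Of 18 complement genes CFB was called higher, a share of 5.56% beside 6.62% of all genes. CFB rose by 0.98 with the block, and its groups overlapped.

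BTG2, an antiproliferative gene, had 52.2, 68.5 and 63 CPM in siBoth and 20.2, 27.8 and 25.5 CPM in siControl_Both (log2 fold change 1.33, SE 0.078, adjusted p = 3.12e-09). CDKN1A, the p21 inhibitor of cyclin-dependent kinases, had 248, 323 and 204 CPM and 130.3, 187 and 145 CPM (log2 fold change 0.74, SE 0.080, adjusted p = 3.26e-06). The lowest siBoth level was above the highest control level for both genes. FDXR, a mitochondrial reductase, rose by 0.83 on the log2 scale, CYFIP2 by 0.81 and SESN2, a stress sensor, by 0.76. TNFRSF10B, the death receptor DR5, was lower, with 270.0, 308 and 228 CPM in siBoth and 513, 613 and 529 CPM in siControl_Both (log2 fold change −1.04, SE 0.074, adjusted p = 2.53e-08).

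In the BCL2 family, which sets the threshold for apoptosis, 3 of 18 genes were called higher, all of them pro-apoptotic BH3-only genes. The 3 were 16.7% of the list, beside 6.62% of all genes. BBC3, which encodes PUMA, had 42.3, 59.8 and 36.8 CPM in siBoth and 20.4, 31.3 and 25.3 CPM in siControl_Both (log2 fold change 0.84, SE 0.096, adjusted p = 5.1e-06). BMF had 18.1, 15.5 and 10.7 CPM and 6.79, 6.12 and 6.45 CPM (log2 fold change 1.17, SE 0.14, adjusted p = 9.36e-06). The groups did not overlap for either gene. BIK rose by 0.93 from under 2 CPM and was not called without the block.

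Among called genes averaging 100 counts or more, the largest rise was that of ITGAX (ENSG00000140678.16, chr16:31355134-31382999), an integrin subunit known from myeloid cells. It had 13.4, 10.2 and 8.38 CPM in siBoth and 2.38, 2.29 and 1.66 CPM in siControl_Both (log2 fold change 2.32, SE 0.16, adjusted p = 1.46e-08). ITGAM, its neighbour and close relative, rose by 1.21 on the log2 scale. Other large rises were spread over genes of many functions. NOVA2, a splicing factor of neurons, rose by 1.75, SLC4A8, a bicarbonate transporter, by 1.65, and NPHS1, which encodes nephrin, by 1.71. The nephrin-like gene KIRREL2 rose by 1.6, TMEM59L by 1.58 and the hormone receptor GIPR by 1.44, all of them from under 4 CPM in every control. PDGFB, a growth factor, had 18.4, 26.7 and 13.1 CPM in siBoth and 6.29, 7.36 and 6.15 CPM in siControl_Both (log2 fold change 1.52, SE 0.14, adjusted p = 4.29e-07). PLAT, the tissue plasminogen activator, had 12.3, 13.6 and 10.1 CPM and 5.12, 4.09 and 3.53 CPM (log2 fold change 1.5, SE 0.14, adjusted p = 5.85e-07). SPOCD1 (1.65), PTP4A3 (1.51) and FAM131B (1.49) completed the 15 largest rises with EBI3, NLRP1 and CSF3.

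Housekeeping and stress programs moved little. The median was 0.00852 over 79 cytosolic ribosomal protein genes, 0.0737 over 74 nuclear genes of the respiratory chain and 0.0276 over 31 NRF2 targets, with 1, 2 and 1 members called. Among 22 heat shock protein genes edgeR called 0 and DESeq2 called 0. In edgeR 8 of the 22 had an unadjusted p under 0.05, beside 7038 of all 15812 genes tested. HSPA8, a constitutive chaperone, had 2157, 2347 and 1997 CPM in siBoth and 2360, 2867 and 2405 CPM in siControl_Both, and HSP90AA1 had a log2 fold change of −0.14. Of 31 genes of the unfolded protein response 1 was called lower, CREB3L2 (−0.99), and 1 higher, SESN2. HMOX1, a haem oxygenase, fell by 0.69 with the block alone. Of 23 canonical histone genes, whose transcripts mostly lack the poly(A) tail used for capture, 2 were called lower and 4 higher (1 and 2 without replicate 2). The 2 lower and 4 higher were 8.7% and 17.4% of the list, beside 5.08% and 6.62% of all genes. H2BC21 rose by 0.91 on the log2 scale, and reads of this family are shared between near-identical copies. The median over the histone list was 0.087, −0.077 with the GC and length correction and −0.068 without replicate 2, so it had no stable sign.

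Epithelial and mesenchymal genes showed no single direction, with 3 of 29 called lower and 7 higher. These were 10.3% and 24.1% of the list, beside 5.08% and 6.62% of all genes. The counts were 1 and 2 without the block, 1 lower without replicate 1, and 4 higher without replicate 2. SNAI2, a repressor of epithelial genes, fell by 1.5 on the log2 scale from under 3 CPM, and the tight junction genes CLDN3 and CLDN4 rose by 1.7 and 0.98. SPARC, a matrix protein, had 8.95, 8.78 and 52.5 CPM in siBoth and 5.3, 4.02 and 26.6 CPM in siControl_Both, with replicate 3 the highest in both groups, and it was called with the block alone.

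Effects of the double knockdown were set against those of each single knockdown in a fit of 18 siRNA libraries and 17336 genes. The experiments had separate controls and different replicates, and siMYBL2 and siFOXM1 share their controls. Knockdown and experiment thus cannot be told apart beyond what the controls remove. The share of pairs that did not align was 1.91% to 2.4% in the siMYBL2, siFOXM1 and siControl libraries. In the siBoth and siControl_Both libraries it was 7.68% to 10.9%, and the part of this difference was not tested. The siBoth effect was below the siMYBL2 effect in 246 genes (1.42%) and above it in 71 (0.41%). It was below the siFOXM1 effect in 668 genes (3.85%) and above it in 843 (4.86%). Without the replicate block the counts were 25 and 1 against siMYBL2 and 316 and 190 against siFOXM1. Against siMYBL2 the count above was 146 without replicate 1 and 43 without replicate 2. In each of these settings fewer genes differed from siMYBL2 than from siFOXM1.

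The medians of the mitotic lists were lower in siBoth than in either single knockdown. Over the spindle list the median was −0.78 in siBoth, −0.52 in siMYBL2 and −0.12 in siFOXM1, and 5 of 42 members were called below the siMYBL2 effect and 15 below the siFOXM1 effect. For KIF20A the log2 fold change was −2.2 in siBoth, −0.85 in siMYBL2 and −0.84 in siFOXM1. It was 1.36 below the siMYBL2 effect (adjusted p = 4.95e-07). Over the 10 named targets the medians were −1.48, −0.82 and −0.69. The replication list gave another picture, with a median of −0.27 in siBoth and −0.38 in siMYBL2. It had 1 member of 57 called below the siMYBL2 effect. The Seurat S-phase list did not share this order, with medians of −0.36 in siBoth, −0.34 in siMYBL2 and −0.11 in siFOXM1.

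Several large falls outside the cell cycle lists were close to those of 1 single knockdown. DAP had log2 fold changes of −2.57 in siBoth, −2.69 in siMYBL2 and 0.017 in siFOXM1, and VANGL1, whose 3′ UTR holds words of both knockdowns, −2.11, −2.11 and −0.058. THOC7, a subunit of the complex that exports mRNA, fell with siFOXM1 and not with siMYBL2. It had 10.4, 12.7 and 12.2 CPM in siBoth and 40.2, 40.6 and 36 CPM in siControl_Both, and log2 fold changes of −1.73 in siBoth, 0.038 in siMYBL2 and −2.15 in siFOXM1. WWTR1, with words of both, had −1.99, −0.93 and −1.73. NEURL1B, with words of both, had −2.6, −1.01 and −2.89. A siFOXM1 word thus stood in genes with and without a fall in siFOXM1.

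The medians of the immune lists were closer to those of siMYBL2. The interferon list had medians of 0.51 in siBoth, 0.51 in siMYBL2 and 0.07 in siFOXM1, with 1 and 15 members called above the single effects. The NF-kB list had 0.38, 0.19 and −0.12, with 1 and 19 called above. Outside these lists, BBC3 was called above both single effects, with log2 fold changes of 0.84, −0.001 and −0.06 (adjusted p = 0.00072 against siMYBL2 and 8.03e-05 against siFOXM1).

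**Figure D5:**
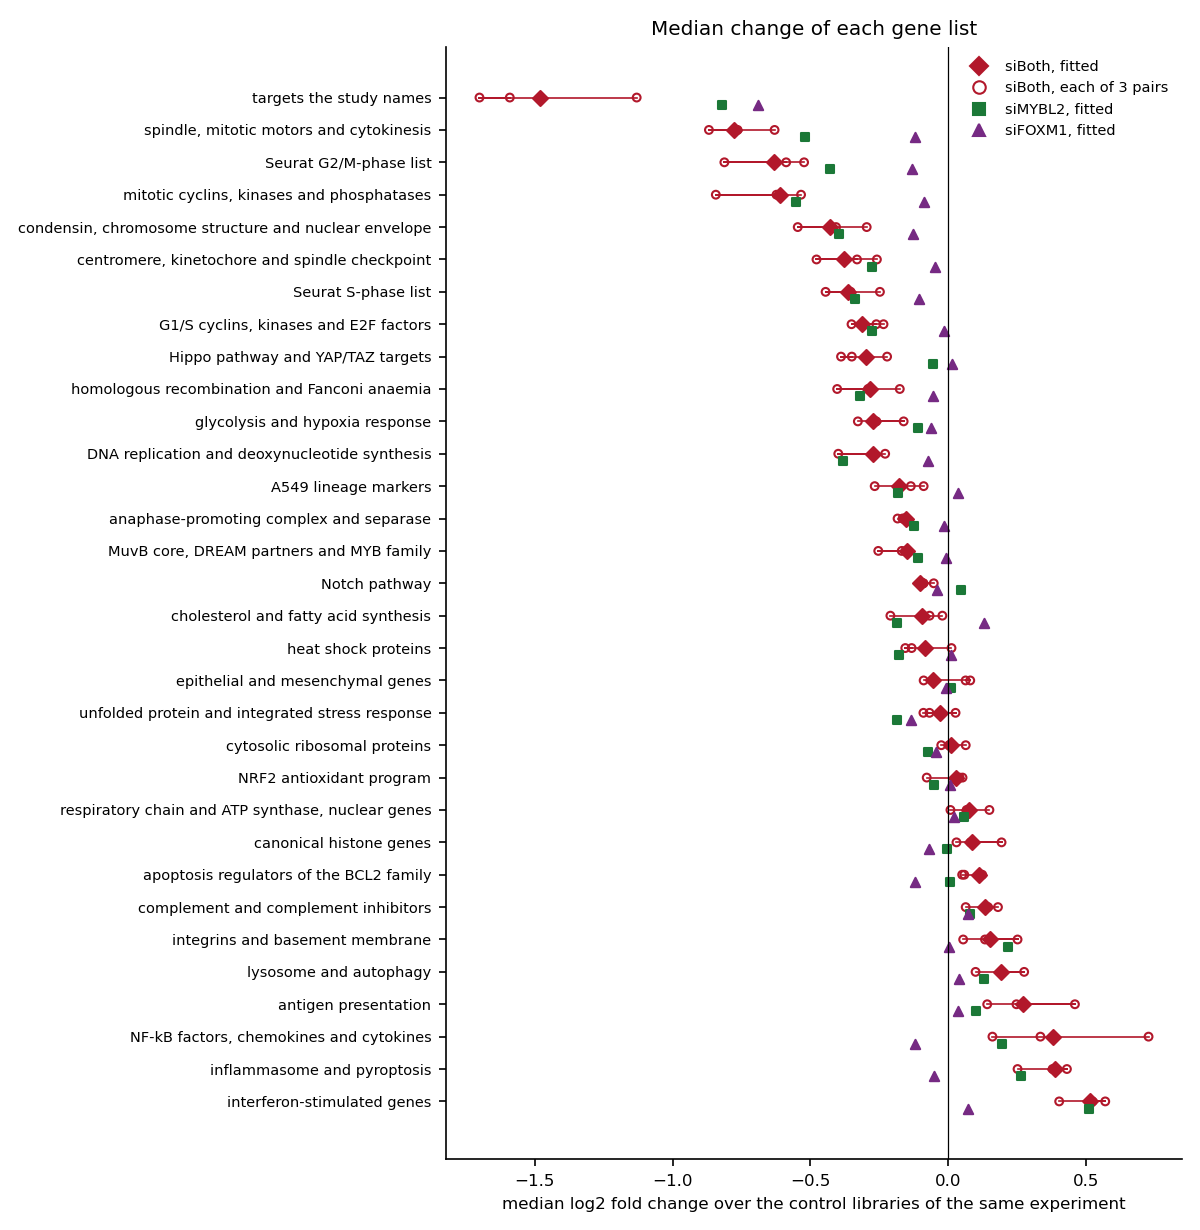
Median log2 fold change over the controls of the same experiment for 32 gene lists, with siBoth as a red diamond, its 3 replicate pairs as open circles, siMYBL2 as a green square and siFOXM1 as a purple triangle. In the spindle list siBoth lies at −0.78, siMYBL2 at −0.52 and siFOXM1 at −0.12.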

How the data were processed

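Poly(A)-captured RNA was sequenced as read pairs. According to the labels and the study's methods, the authors trimmed reads with TrimGalore, aligned them with STAR to hg38 and used HTSeq with GENCODE V29 for counting. They deposited raw counts of read pairs per gene and library, without normalization. The versions and the strand setting are not given in the sources used here. Pairs that match more than 1 gene are left out by HTSeq, so genes with near-identical copies are undercounted. Ambiguous pairs made up 7.88% to 8.12% of the 6 libraries, and rows for pairs without a gene stayed out of library sizes. RNA isolation is described differently between sources.

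The siBoth and siControl_Both counts were fitted in R 4.3.3 by edgeR 4.0.16, with TMM scaling, filterByExpr, the quasi-likelihood test, replicate number as a block and Benjamini-Hochberg adjustment over all genes tested. Calls needed a fold change over 1.5 beside an adjusted p under 0.05. The standard error is the size of the log2 fold change divided by the square root of F. CPM used TMM-scaled totals. Same-numbered siBoth and siControl_Both libraries deviated together (correlations over 11865 genes of 0.55, 0.56 and 0.69, against −0.47 to −0.15 for other pairs), and the shared numbers come from the labels. No pair of libraries agreed within sampling noise. On counts simulated for 15812 genes with 1 dispersion for all, changes were put only into genes averaging 100 counts or more. Of these, 96% of 50 genes changed 1.8-fold and 100% of 50 changed 2-fold were called. Changes in genes at lower levels were not simulated.

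The members, gene lists and tests were chosen with earlier results of these data known. Named genes are both targets, the study's 10 named targets, the 15 largest falls and rises (called, averaging 100 counts or more, without overlap), up to 4 called members of each list and direction by adjusted p (2 by level where none was called) and the 5 most significant differences per direction from each single knockdown. Genes outside this rule, mainly KRT8, LIN9, RBL1, MYBL1, MYB, CCN1, CCN2, ITGA11, IFIT1, OAS1, CXCL8 and the markers of other cell types, were chosen after their values were seen. Of 58721 identifiers, 58207 matched GENCODE V44, used for positions and 3′ UTRs. DESeq2 1.42.0, glmTreat, other scalings and filters, a GC and length correction, a fit without the block and leaving out each replicate were the alternatives. The chemical inhibitor libraries of the series were not used. A few items are not reported here.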

Additional observations from a re-analysis of the deposited data

Results flagged for a closer look

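Differences between the siBoth effect and each single effect were tested as contrasts of a single edgeR fit of 18 libraries, which drew attention to the following values. The siBoth effect was below the siMYBL2 effect in 246 genes and above it in 71. The lowest adjusted p values below belonged to FOXM1 (−2.64 on the log2 scale), the mRNA export gene THOC7 (−1.77), KIF20A (−1.36), WWTR1 (−1.05) and the mannosidase-like gene EDEM3 (−0.94). Above it were TNFAIP2 (0.66), DUS1L (0.62), SPINDOC (0.62), EFNA1 (0.61) and MAP2K3 (0.60). Of these last 5, EFNA1 alone was called in siBoth against its own controls, and the other 4 were lowered by siMYBL2 and not called in siBoth.

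The siBoth effect was below the siFOXM1 effect in 668 genes and above it in 843. MYBL2 (−4.31), DAP (−2.59), VANGL1 (−2.06), EXTL3 (−1.95) and RRBP1 (−1.52) had the lowest adjusted p values below it. ITGAX (2.65), the splicing factor NOVA2 (2.59), the bicarbonate transporter SLC4A8 (2.52), the nucleotide receptor P2RY6 (1.36) and PNMA8A (0.90) had the lowest above it. The double and single knockdowns were separate experiments, and knockdown and experiment cannot be told apart beyond their controls.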

How the results depend on the processing

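The number of genes called lower was 277 and that called higher 196 with glmTreat, which tests against the 1.5-fold limit itself, and the share of calls that were higher was then 41.4%. Without the replicate block 443 genes were called higher, 43.5% of the calls, and DESeq2 called 577 higher, 44.4% of its calls. Upper-quartile scaling, which moved the median of all genes from 0.015 to 0.09, gave a share of 69.1%. Leaving out each replicate gave 701 to 964 genes lower, 628 to 1121 higher and shares of 47.3% to 56.0%, and the cause was not tested. MYBL2 and FOXM1 kept their calls and directions in every setting, and the lists with a median below 0 stayed between 18 and 24 of 36.

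Differences from siMYBL2 numbered 25 below and 1 above without the replicate block, and those from siFOXM1 316 and 190. Leaving out each replicate gave 43 to 146 genes above the siMYBL2 effect. TNFAIP2 changed sign with the GC and length correction (−0.045) and ranged from −0.066 to 0.136 when each replicate was left out. SPINDOC did so with upper-quartile scaling (0.067) and ranged from −0.046 to 0.009. The median of canonical histone genes turned to −0.077 with the GC and length correction and ranged from −0.068 to 0.1 when each replicate was left out.

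Promoters were also read from 100 bases before to 50 after the start, a shorter window that holds fewer letters. CHR letters were found there in 15.2% of genes called lower, beside 6.33% of all genes tested with a promoter. For CCAAT these shares were 29.3% and 23.5%, and for the MYB letters 26.8% and 28.2%. With words of 6 bases, genes that held them had medians of −0.048 for siMYBL2 and −0.059 for siFOXM1. Of 149 named genes, 40 lost their call without the block, 58 with glmTreat, 20 with the GC and length correction, 13 with upper-quartile scaling and 11 in DESeq2, and 13, 21 and 6 without replicates 1, 2 and 3. With RLE scaling and in the fit of 18 libraries all 149 kept their side of the threshold. With at least 10 counts in every library 145 did, and 4 were not tested.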

Other observations

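Some genes not described above were called in siBoth with values that stand on their own. COX6B2, a testis-expressed subunit of cytochrome c oxidase, was higher by 1.49 on the log2 scale. UQCR10, a subunit of complex III, was lower by a log2 fold change of −0.75. The ribosomal protein paralog RPL22L1 had a log2 fold change of −0.60. SMPD1, the acid sphingomyelinase of the lysosome, had a log2 fold change of 0.99, and MAP1LC3A, an autophagosome protein, one of 0.73 that was not called without the block. The alveolar type II markers NAPSA (0.73) and LAMP3 (0.76) were called higher at no more than 4 CPM and were not called without the block. The summed level of the 12 alveolar type II markers was 112, 127 and 105 CPM in siBoth and 103, 102 and 94.8 CPM in siControl_Both, most of it ABCA3.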
